A study of Mus musculus with 6 samples.

Results

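Regulators of G-protein signalling (RGS proteins) were followed as a group of 10 genes in neurons of the medial mammillary nucleus, a cell group of the posterior hypothalamus. The 10 genes, Rgs2, Rgs4, Rgs7, Rgs8, Rgs9, Rgs10, Rgs12, Rgs14, Rgs16 and Rgs17, were taken by gene name from a table of 55414 mouse genes, in which each name occurs once. The table also holds 11 further genes named Rgs with a number, which are described after them. The 6 libraries come from neurons of male mice whose genotype label is PV-positive (3 libraries, replicates 6, 7 and 8) or Drd2-positive (3 libraries, replicates 1, 2 and 3), PV being the calcium-binding protein parvalbumin and Drd2 the D2 dopamine receptor. Slices were digested with papain and fluorescent cells were drawn into glass electrodes, per the labels. No source used here gives the alleles behind the fluorescence, the strain, the age of the mice or the number of cells or mice per library. The design text calls the libraries biological replicates, and p-values measure the spread between them.

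A receptor coupled to a G protein loads GTP onto the alpha subunit, which then signals until it hydrolyses the GTP. RGS proteins bind the active alpha subunit through their RGS domain and speed up that hydrolysis, so that the signal ends sooner. Most act on alpha subunits of the Gi/o class, the class that D2 dopamine receptors use, and some also on the Gq class. The genes fall into subfamilies. Rgs2, Rgs4, Rgs8 and Rgs16 encode small proteins of the R4 subfamily. Rgs7 and Rgs9 encode R7 proteins, which need the beta subunit Gnb5 as a partner and are anchored at the membrane by the protein of Rgs7bp. Rgs10, Rgs12 and Rgs14 form the R12 subfamily, and Rgs17 belongs to the RZ subfamily with Rgs19 and Rgs20.

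In the mouse genome (mm10, GENCODE M21) all 4 R4 members and Rgs7 lie on chromosome 1. Rgs8 (153653025 to 153700323) and Rgs16 (153740349 to 153745468) are near neighbours on its plus strand, and Rgs2 (143999338 to 144004161), Rgs4 (169741477 to 169747642) and Rgs7 (175059087 to 175492500) lie on its minus strand. Rgs9 is on chromosome 11 (109225355 to 109298129, minus strand) and Rgs17 on chromosome 10 (5825663 to 5922400, minus strand). Of the R12 genes, Rgs10 is on chromosome 7 (128373621 to 128418758, minus strand), Rgs12 on chromosome 5 (34949445 to 35039644, plus strand) and Rgs14 on chromosome 13 (55369732 to 55384687, plus strand).

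The values are FPKM, fragments scaled to a gene's length and to the fragments of the library, so that levels of different genes can be compared. Where 3 values stand for a group they follow the replicate numbers, 1 to 3 in Drd2 and 6 to 8 in PV. In a gene of 1 kb, 1 read was worth 0.0296 to 0.0420 FPKM, depending on the library. Mitochondrial genes took 3.74% to 5.20% of the FPKM total in the Drd2 libraries and 9.62% to 31.3% in the PV libraries. PV replicate 7 had the fewest genes at 1 FPKM or more (8610, against 10293 to 12398 in the others). Transcript of Drd2 itself reached 42.7, 55.0 and 7.74 FPKM in the Drd2 group, 0.0132 FPKM in PV replicate 6, and a listed 0 in PV replicates 7 and 8. Pvalb stood at 349 to 563 FPKM in PV and 10.4, 22.5 and 99.5 FPKM in Drd2, so Drd2 replicate 3 held the least Drd2 and the most Pvalb of its group. Among the mammillary markers, the glutamate transporter Slc17a6 was at 108 to 144 FPKM and the transcription factor Lhx1 at 8.32 to 25.3 FPKM, Barhl1 was listed at 0 in all 6 libraries, and Foxb1 is given below. In such bulk libraries fewer cells of a type and less RNA per cell cannot be told apart.

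Rgs4 and Rgs17 were the 2 members whose Drd2 and PV values did not overlap, all Drd2 libraries being higher as for 13.1% of all tested genes, and their promoters are shown for that reason. The sequences are the 250 bases before the RefSeq start site (GRCm38.p6), 5′ to 3′ on the gene's strand, which is the minus strand for both. Capitals mark matches, on either strand, to the cAMP-response element half-site TGACG, the TATA box TATAAA and the GC box GGGCGG. The window of Rgs4 is chr1:169747643-169747892 and that of Rgs17 is chr10:5922401-5922650.
Rgs4: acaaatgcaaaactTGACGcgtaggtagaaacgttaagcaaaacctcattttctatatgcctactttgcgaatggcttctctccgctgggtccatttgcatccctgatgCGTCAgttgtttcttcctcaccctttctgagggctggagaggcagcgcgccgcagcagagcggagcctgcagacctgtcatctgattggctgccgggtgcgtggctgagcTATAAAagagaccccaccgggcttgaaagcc
Rgs17: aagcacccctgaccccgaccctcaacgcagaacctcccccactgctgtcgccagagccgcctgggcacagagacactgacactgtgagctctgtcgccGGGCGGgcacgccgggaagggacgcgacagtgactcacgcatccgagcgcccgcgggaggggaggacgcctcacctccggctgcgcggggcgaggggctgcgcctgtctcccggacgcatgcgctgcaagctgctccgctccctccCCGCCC
The Rgs4 window held TGACG 2 times and a TATAAA that begins 31 bases before the start, and no GGGCGG. The Rgs17 window held GGGCGG 2 times, and neither TGACG nor TATAAA. Among 32851 RefSeq promoter windows of that length, 17.8% held TGACG, 12.4% TATAAA and 32.7% GGGCGG. The share of G and C was 53.6% in the Rgs4 window and 72.4% in that of Rgs17, against a median of 52.4% over all windows. The complete element TGACGTCA, which contains TGACG and was present in 1.55% of all windows, was in none of the 12 windows listed for 9 of the 10 genes. These matches describe the letters and not binding.

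The FPKM values of Rgs4 and Rgs17 were higher in every Drd2 library than in every PV library. The values of Rgs10, Rgs7 and Rgs2, which rank between Rgs4 and Rgs17 by group mean, overlapped between the groups. No member passed the threshold over all genes. Of the 10 members, 8 reached 1 FPKM in 3 or more libraries and were tested, with PV compared with Drd2 by limma on log2(FPKM + 1). None of the 8 had a Benjamini-Hochberg adjusted p under 0.05, where 0.261% of all 11478 tested genes did. At an unadjusted p under 0.05, 2 members (Rgs4 and Rgs17) were higher in Drd2, where 9.77% of all genes were, and 0 were higher in PV, where 3.02% were. With limma voom on reads recovered from the FPKM values, 0 members passed as well, against 0.192% of all genes. Fold changes below are PV minus Drd2 on the log2(FPKM + 1) scale, which understates the change of weakly expressed genes.

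**Figure D1:**
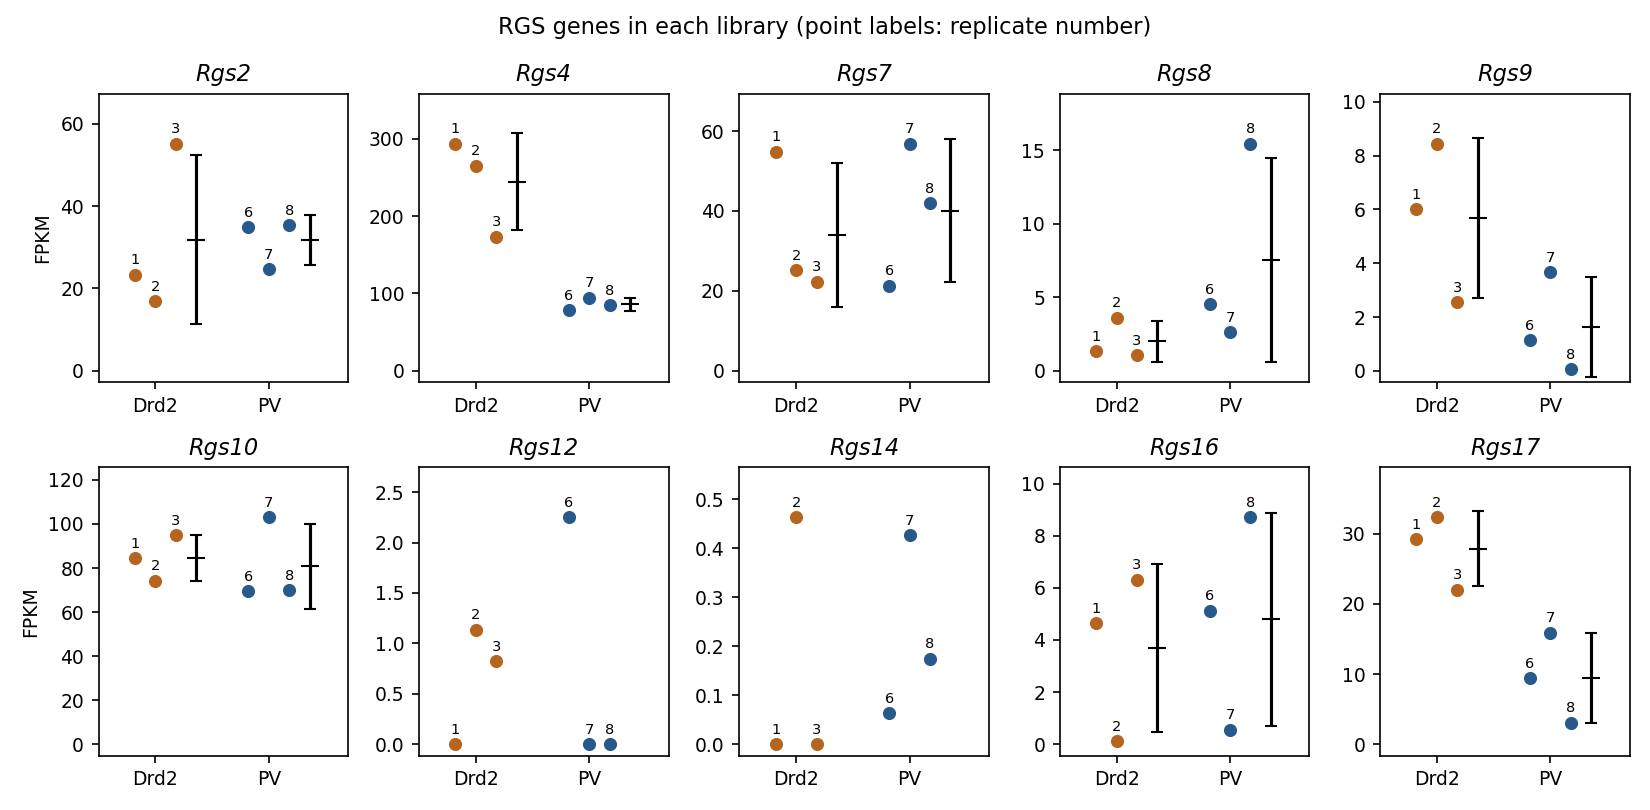
FPKM of each of the 10 RGS genes (1 panel each, with its own linear axis) in the 3 Drd2 and 3 PV libraries; points are libraries with their replicate number, and bars beside them show mean ± SD for the 8 tested genes. Rgs4 and Rgs17 are the panels in which the Drd2 points all lie above the PV points.

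Among the R4 members, Rgs4, an abundant brain regulator of Gi/o and Gq signalling, was the most abundant RGS gene in 5 of the 6 libraries. Rgs4 (ENSMUSG00000038530) was at 294, 265 and 174 FPKM in Drd2 and at 78.2, 94.4 and 84.7 FPKM in PV. The lowest Drd2 library, replicate 3, thus lay above the highest PV library, replicate 7. The means were 244 ± 62.8 and 85.8 ± 8.13 FPKM (SD, n = 3 each), a ratio of 2.85, with 7222 to 30705 reads behind each value. The log2 fold was -1.47 ± 0.36 (SE; 95% interval -2.28 to -0.66; limma adjusted p = 0.132). Its sign was the same in all 14 alternatives, with folds from -1.70 to -1.23 and adjusted p from 0.105 to 0.490, and the fold was -1.70 without Drd2 replicate 3, the library of its group with the least Rgs4 and Rgs17. Counted from the median fold of all tested genes, which was -0.28, the fold of Rgs4 was -1.19.

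Rgs17, which acts on Gi/o and Gz subunits, showed the same separation at a lower level. It was at 29.2, 32.4 and 22.0 FPKM in Drd2 and at 9.44, 15.9 and 3.10 FPKM in PV. The Drd2 values sat close together, and the PV values spread over a wider relative range, with PV replicate 8 lowest. The means were 27.9 ± 5.30 and 9.48 ± 6.39 FPKM (SD, n = 3 each), a ratio of 2.94. The log2 fold was -1.67 ± 0.60 (SE; 95% interval -3.02 to -0.32; limma adjusted p = 0.283). Without PV replicate 8 it was -1.10, and without PV replicate 7 it was -2.12. The count of 2 of 8 members with all Drd2 libraries above all PV libraries stands beside 13.1% of all tested genes, and 0 of 8 had all PV libraries above all Drd2 libraries, beside 5.83% of all tested genes. For a single gene compared 3 against 3, the smallest p an exact permutation test can give is 0.1.

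Several other measures separated the same libraries, and their part in the Rgs4 and Rgs17 difference was not tested. The mitochondrial share was lower in every Drd2 library than in every PV library, as given above. The 13 immediate-early genes summed to 865, 1655 and 658 FPKM in the Drd2 libraries and to 309, 41.9 and 294 FPKM in the PV libraries. Fos alone was at 610, 1010 and 155 FPKM in Drd2 and at 96.5, 1.78 and 119 FPKM in PV. Of the 11 tested singly, 5 had all Drd2 libraries above all PV libraries, beside 13.1% of all tested genes, and 6 overlapped. The 4 haemoglobin genes summed to 0.336, 11.5 and 0 FPKM in Drd2 and to 2999, 3203 and 743 FPKM in PV. Of 5 pan-neuronal markers, Snap25 was at 202, 331 and 503 FPKM in Drd2 and at 751, 1110 and 766 FPKM in PV, without overlap. Tubb3 separated in the opposite direction, at 428 to 563 FPKM in Drd2 and 61.7 to 311 FPKM in PV, and the other 3 overlapped. Of 11 mammillary markers, 6 were tested and 2 separated, both with higher values in Drd2, beside 13.1% of all tested genes. The transcription factor gene Foxb1 was at 76.4, 52.6 and 26.4 FPKM in Drd2 and at 24.0, 4.19 and 14.7 FPKM in PV, and Nkx2-4 was at 1.48 to 9.66 FPKM in Drd2 and listed at 0 in all PV libraries. Sums of 10 oligodendrocyte markers (74.2 to 1467 FPKM in Drd2, 69.8 to 337 FPKM in PV) and of 9 astrocyte markers (15.8 to 81.0 FPKM and 37.5 to 57.9 FPKM) overlapped. Of the 10 oligodendrocyte markers, 9 had a fold below 0, beside 7076 of all 11478 tested genes. Only 1 of the 10 separated, beside 13.1% of all tested genes. This was Mog, at 51.5, 254 and 7.85 FPKM in Drd2 and at 2.54, 0 and 0.228 FPKM in PV. The 5 oligodendrocyte precursor markers summed to 1.67, 4.35 and 2.66 FPKM in Drd2 and to 20.2, 10.7 and 24.8 FPKM in PV. Of these 5, 1 was tested.

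Shares among the RGS transcripts do not depend on how a library is scaled. Rgs4 made up 59.0%, 62.0% and 45.8% of the summed FPKM of the 10 genes in Drd2 and 34.5%, 31.2% and 32.7% in PV. The PV shares lay within a few percentage points of each other and below all Drd2 shares. Relative to Rgs10 in the same library, Rgs4 stood at 3.48, 3.57 and 1.83 in Drd2 and at 1.13, 0.915 and 1.21 in PV. Rgs10 is also expressed by microglia, whose marker sums are given below, and their part in this ratio was not tested. The 10 genes together summed to 435 ± 59.7 FPKM in Drd2 and 263 ± 38.0 FPKM in PV (SD, n = 3 each).

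**Figure D2:**
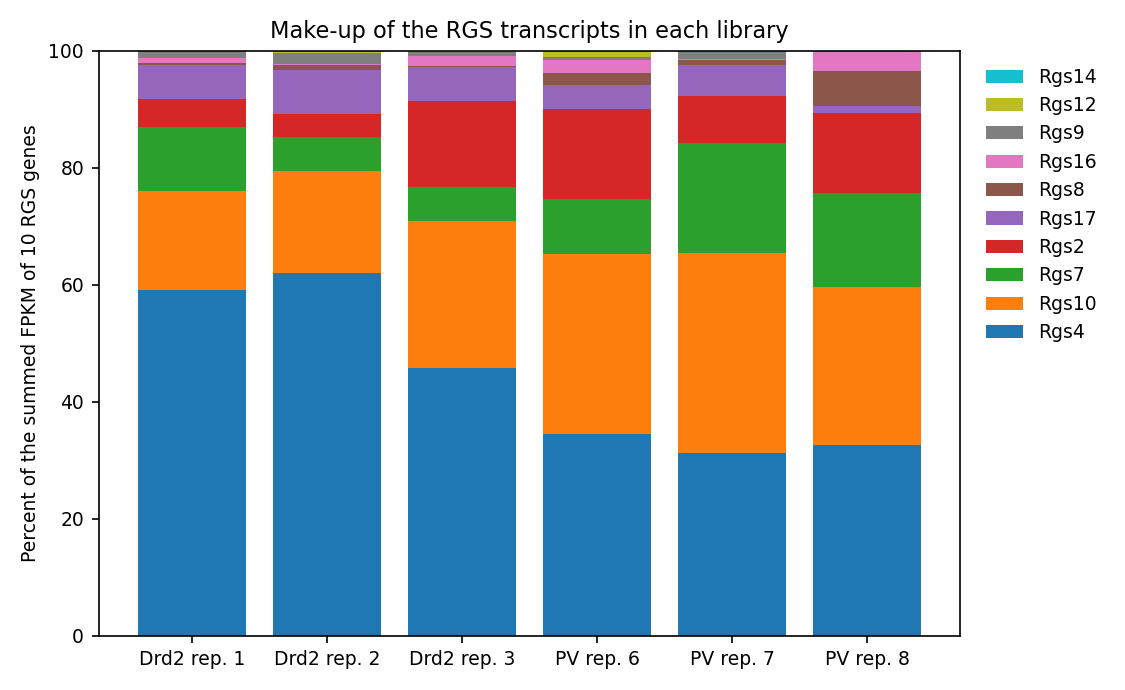
Share (percent) of each of the 10 RGS genes in their summed FPKM, with 1 bar for each library. Rgs4 takes 45.8% to 62.0% of the Drd2 bars and 31.2% to 34.5% of the PV bars.

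Rgs2, an R4 protein with a preference for Gq and itself an activity-responsive gene, was at 23.3, 16.9 and 55.2 FPKM in Drd2 and at 35.0, 24.7 and 35.4 FPKM in PV. All PV values fell inside the Drd2 range, whose top was Drd2 replicate 3. The log2 fold was 0.15 with a 95% interval of -1.01 to 1.31 (limma adjusted p = 0.924), so a change of up to about 1 on the log2 scale in either direction is within the interval.

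Rgs8 and Rgs16, the weaker R4 members, had PV means above their Drd2 means without separation. Rgs8 was at 1.35, 3.60 and 1.05 FPKM in Drd2 and at 4.54, 2.61 and 15.5 FPKM in PV. It was the member with the largest fold toward PV, 1.30 ± 0.78 (SE; limma adjusted p = 0.519), and without PV replicate 8, its highest library, the fold was 0.67. Rgs16 was at 4.65, 0.114 and 6.31 FPKM in Drd2 and at 5.12, 0.556 and 8.72 FPKM in PV. Each group thus held 1 library with far less Rgs16 than the other two, Drd2 replicate 2 with 8 reads and PV replicate 7 with 36 reads, and its 95% interval of -1.83 to 2.50 on the log2 scale was the widest of the 8. Exons of Rgs8 and Rgs16 overlap predicted genes on the opposite strand (Gm29529 and Gm28513), and whether the counting used strand is not stated in the labels.

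Of the R7 members, Rgs7 was abundant in both groups and Rgs9 weak. Rgs7, a brain R7 protein, was at 54.8, 25.2 and 22.3 FPKM in Drd2 and at 21.3, 56.9 and 41.9 FPKM in PV. Each group held a library above 50 FPKM and one near 22 FPKM, and the log2 fold was 0.23 with a 95% interval of -0.96 to 1.42 (limma adjusted p = 0.886). Rgs9, best known as a regulator of D2 receptor signalling in the striatum, was at 6.02, 8.45 and 2.54 FPKM in Drd2 and at 1.14, 3.66 and 0.0497 FPKM in PV. PV replicate 7 lay above Drd2 replicate 3, so the groups overlapped, and PV replicate 8 had only 9 reads of Rgs9. The log2 fold of Rgs9 was -1.49 ± 0.77 (SE; limma adjusted p = 0.456), and it was -0.96 without PV replicate 8. Among markers of striatal projection neurons, which are known for Rgs9, Adora2a was listed at 0 in all 6 libraries. Penk reached 85.2 FPKM in Drd2 replicate 1 and 37.7 FPKM in Drd2 replicate 2, the libraries with the most Rgs9, and 4.17 FPKM in PV replicate 6, with a listed 0 in the others. Gpr6 reached 35.6 and 42.3 FPKM in PV replicates 6 and 7 and at most 1.79 FPKM elsewhere, and Ppp1r1b was at most 11.2 FPKM. The part of such cells in the Rgs9 values was not tested.

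Rgs10, a short R12 protein that is also strongly expressed by microglia, varied little over the 6 libraries. It was at 84.4, 74.2 and 95.0 FPKM in Drd2 and at 69.4, 103 and 69.9 FPKM in PV. The groups overlapped over most of their range, and the log2 fold was -0.08 with a 95% interval of -0.91 to 0.74 (limma adjusted p = 0.945). The 12 microglial markers summed to 24.2, 107 and 3734 FPKM in the Drd2 libraries and to 1421, 1010 and 456 FPKM in the PV libraries. In Drd2 replicate 1, which had the lowest microglial sum, 6 of the 12 markers were listed at 0. The part of microglial RNA in the Rgs10 values was not tested. The larger R12 genes, Rgs12 and Rgs14, which also carry a GoLoco motif that binds inactive alpha subunits, were weak and were not tested. Rgs12 reached 1.13 FPKM in Drd2 replicate 2, 0.825 FPKM in Drd2 replicate 3 and 2.25 FPKM in PV replicate 6, with a listed 0 in the other 3 libraries. Its exons overlap the predicted gene Gm43791 on the opposite strand. Rgs14, known for its expression in hippocampal area CA2, reached at most 0.464 FPKM (59 reads, Drd2 replicate 2) and was listed at 0 in Drd2 replicates 1 and 3.

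**Figure D3:**
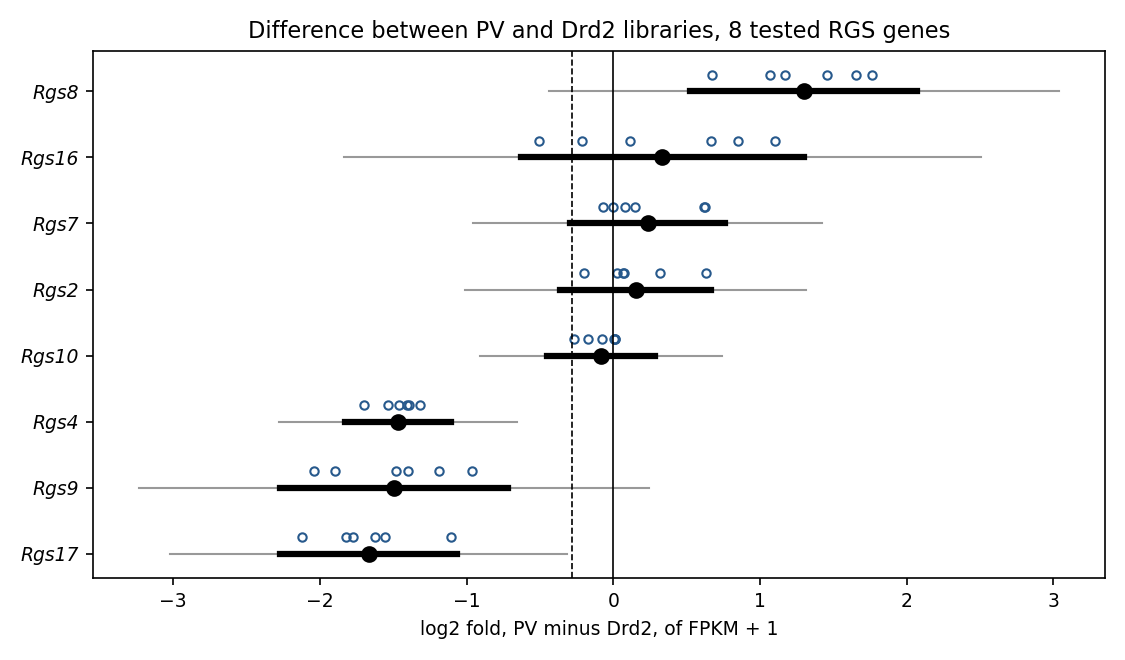
The log2 fold (PV minus Drd2, of FPKM + 1) of the 8 tested RGS genes, with thick bars for the SE and thin bars for the 95% interval of limma; open circles are the folds with 1 library left out, and the dashed line is the median of all tested genes, -0.28. The open circles of Rgs4, Rgs9 and Rgs17 all lie below 0 and those of Rgs8 above 0, while those of Rgs2, Rgs7, Rgs10 and Rgs16 lie on both sides.

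The order of group means was the same in both groups for the 5 most abundant members. It ran Rgs4, Rgs10, Rgs7, Rgs2 and Rgs17 in both, followed by Rgs9, Rgs16 and Rgs8 in Drd2 and by Rgs8, Rgs16 and Rgs9 in PV, with Rgs12 and Rgs14 last in both. In Drd2 the ranges of Rgs4 and Rgs10 did not overlap, whereas in PV they did, with Rgs10 above Rgs4 in PV replicate 7. Rgs10 lay clear of Rgs7 in both groups, and Rgs7 and Rgs2 overlapped in both. Rgs17 overlapped Rgs2 in Drd2 and Rgs8 in PV. Among Rgs8, Rgs16 and Rgs9, neighbours in the order overlapped in both groups, although Rgs9 lay above Rgs8 within each of the 3 Drd2 libraries. The median log2 fold of the 8 members was 0.04, with 4 folds above and 4 below 0, against the median of -0.28 over all genes, while 7076 of the 11478 tested genes had a fold below 0.

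The genes with the profile most like that of Rgs4 over the 6 libraries, by the root-mean-square difference of log2(FPKM + 1) values centred on each gene's mean among 10143 genes, were Pithd1 (0.14), Celf4 (0.15) and Gstp1 (0.16). Celf4, an RNA-binding protein of neurons, was at 59.7, 59.4 and 45.0 FPKM in Drd2 and at 21.5, 21.8 and 21.1 FPKM in PV. None of the 3 passed over all genes (limma adjusted p = 0.161 to 0.205). For Rgs8, the member with the smallest p toward PV, they were Nalf2 (0.24), Marf1 (0.25) and Zfp804a (0.30), all highest in PV replicate 8.

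Of the 11 other RGS genes, 5 were tested and none passed over all genes. Their median log2 fold was -1.35, against -0.28 over all tested genes. All Drd2 libraries lay above all PV libraries for 2 of the 5, beside 13.1% of all tested genes. Rgs19, an RZ protein like Rgs17, was at 36.1, 20.6 and 40.4 FPKM in Drd2 and at 17.8, 14.6 and 0.775 FPKM in PV. As for Rgs17, the groups did not overlap and PV replicate 8 was lowest (log2 fold -2.00 ± 0.86, SE; limma adjusted p = 0.370), and without that library the fold was -0.91. Rgs3, of the R4 subfamily, also separated, at 4.20 to 10.6 FPKM in Drd2 and 0.214 to 3.90 FPKM in PV. Its log2 fold was -1.48 ± 0.75 (SE, limma adjusted p = 0.451). The R7 genes Rgs6 and Rgs11 overlapped, at 4.32 to 12.6 FPKM and at 0.988 to 38.6 FPKM over the 6 libraries. Exons of Rgs6 and Rgs11 overlap genes on the opposite strand (Gm29530 and Arhgdig). Rgs5, a marker of the mural cells of blood vessels, was at most 0.118 FPKM, and the 8 vascular and mural markers summed to at most 6.23 FPKM in any library. Rgs13 and Rgs18 were listed at 0 in all 6 libraries.

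Among the partners of RGS proteins, the gene for the R7 anchor separated the groups, with higher values in PV. Rgs7bp (ENSMUSG00000021719, chromosome 13, 104945904 to 105054930) was at 65.5, 42.5 and 75.0 FPKM in PV and at 25.1, 8.59 and 17.4 FPKM in Drd2. All PV libraries lay above all Drd2 libraries, and the log2 fold was 1.86 ± 0.50 (SE; limma adjusted p = 0.170, from 0.0958 to 0.602 over 14 alternatives, all with the same sign). Gnb5, the obligate beta subunit, was at 59.3, 67.4 and 52.8 FPKM in PV and at 49.1, 95.6 and 82.7 FPKM in Drd2, with overlap. Within a library the level of Rgs7bp over that of Rgs7 was 0.458, 0.341 and 0.784 in Drd2 and 3.08, 0.747 and 1.79 in PV, so PV replicate 7 lay below Drd2 replicate 3. Gpr158, an orphan receptor that binds R7 proteins, was at 4.13 to 12.2 FPKM in Drd2 and 10.6 to 34.4 FPKM in PV, with overlap. Of the GoLoco proteins, Gpsm3 was at 1.26 to 2.42 FPKM in PV and at most 1.03 FPKM in Drd2, and shares exon bases with Pbx2. Gpsm1 was at 20.4, 0 and 0.432 FPKM in PV and 7.11 to 15.8 FPKM in Drd2. Exons of Gnb5, Gpr158 and Gpsm1 overlap genes on the opposite strand. None of the 5 tested partners passed over all genes. All PV libraries lay above all Drd2 libraries for 2 of the 5, Rgs7bp and Gpsm3, beside 5.83% of all tested genes. Gpsm3 rested on few reads, 0, 1 and 33 in Drd2 and 64, 90 and 48 in PV.

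Of 12 genes for G-protein alpha subunits of several classes, 11 were tested. All 11 overlapped between the groups, as did 9301 of all 11478 tested genes, and none passed (median log2 fold 0.08; lowest limma adjusted p = 0.456, for Gnai2). Gnao1, the Go alpha subunit of neurons, was at 23.5 to 35.3 FPKM in Drd2 and 29.0 to 46.1 FPKM in PV, and Gnai2 was at 25.6 to 81.9 FPKM and 8.04 to 50.0 FPKM. Gnai1 was at 9.27 to 19.0 FPKM in Drd2 and 18.1 to 42.9 FPKM in PV. Gnal, the olfactory-type stimulatory subunit, was at 2.30 to 8.04 FPKM in Drd2 and 7.24 to 13.5 FPKM in PV, and Gna12 was at most 6.74 FPKM in any library. Exons of Gnao1, Gnal and Gna12 overlap genes on the opposite strand.

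Of 16 effectors 11 were tested and none passed over all genes, with 3 of the 11 non-overlapping and higher in PV and 1 non-overlapping and higher in Drd2, beside 5.83% and 13.1% of all tested genes. Plcb4, a phospholipase C driven by Gq, was at 15.4, 10.8 and 16.2 FPKM in Drd2 and at 32.9, 61.1 and 41.8 FPKM in PV. The groups did not overlap, and the log2 fold was 1.59 ± 0.45 (SE; limma adjusted p = 0.185). Kcnj3, a subunit of the potassium channels opened by Gi/o, was at 3.43 to 9.81 FPKM in Drd2 and 13.2 to 28.2 FPKM in PV. The adenylyl cyclase gene Adcy3 was at 1.34 to 2.78 FPKM in Drd2, against 0.446 FPKM in PV replicate 6 and a listed 0 in the other PV libraries, and Adcy9 was at most 2.24 FPKM in Drd2 and 1.98 to 7.87 FPKM in PV. Exons of Kcnj3 and Adcy3 overlap genes on the opposite strand.

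Of 27 receptors of the Gi/o class 10 were tested and none passed over all genes, Drd2 itself included (log2 fold -4.79 ± 0.81, SE; limma adjusted p = 0.0501, from 0.0454 to 0.340 over the alternatives, of which 2 put it under 0.05). Adora1, the A1 adenosine receptor, was at 0.364, 1.81 and 9.01 FPKM in Drd2 and at 16.0, 9.47 and 13.9 FPKM in PV, without overlap but with Drd2 replicate 3 just below PV replicate 7, and its exons overlap Mybph on the opposite strand. The opioid-family receptors Oprm1 and Oprl1 overlapped between the groups. Oprm1 was at 1.48 to 9.74 FPKM in Drd2 and at most 2.92 FPKM in PV, and its exons overlap Ipcef1 on the opposite strand. Oprl1 was at 16.1 to 46.4 FPKM in Drd2 and 1.15 to 30.4 FPKM in PV.

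**Figure D4:**
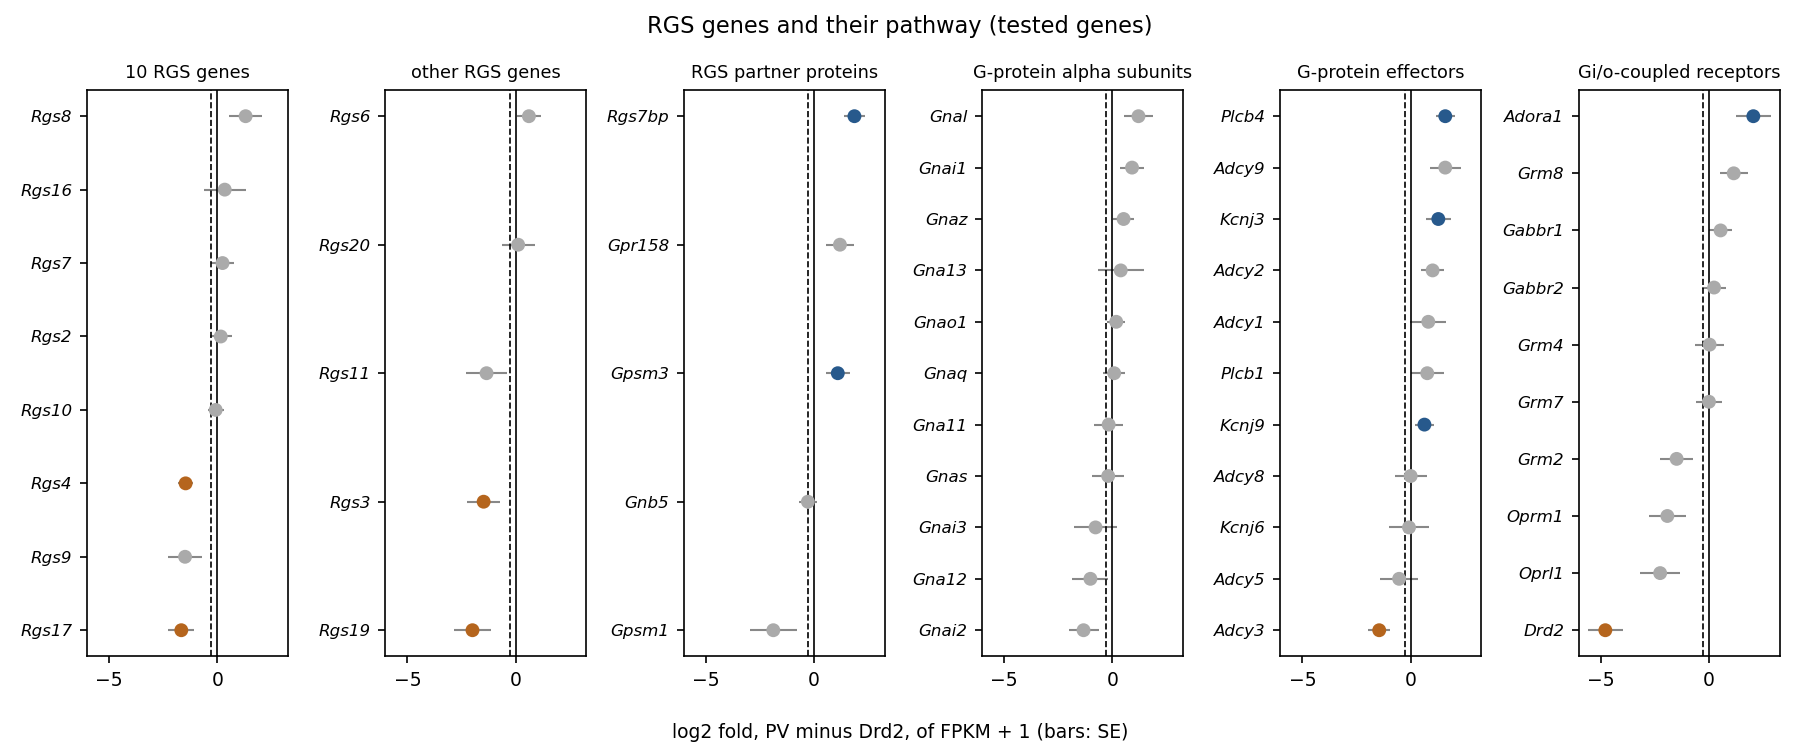
The log2 fold (PV minus Drd2, of FPKM + 1) with its SE for tested genes of 6 lists, from the 10 RGS genes to the Gi/o-coupled receptors; brown points are genes with all Drd2 libraries above all PV libraries, blue points the opposite and grey points genes that overlap, and the dashed line is the median of all tested genes. The brown points of Rgs4, Rgs17, Rgs3 and Rgs19 lie left of the line, and the blue point of Rgs7bp lies at 1.86. Adcy3 and Drd2 are also brown, and Gpsm3, Plcb4, Kcnj3, Kcnj9 and Adora1 are also blue.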

How the data were processed

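RNA sequencing libraries of PV-positive (3) and Drd2-positive (3) neurons were compared. The deposited table gives FPKM values made by the authors for each gene and library. The submitters' processing notes name the aligner STAR without a version, and list 3 genome builds (hg38, GRCh38, mm10). No source used here gives the quantifier, the strand setting or the annotation release. Of the gene identifiers, 94.1% were found in GENCODE M21 (mm10), from which positions and exon lengths were taken. FPKM times exon length fell on whole reads: of values up to 20 reads, between 98.0% and 98.8% per library were whole to a tolerance of 0.01. Reads describe counting error only, since no molecular identifiers are recorded.

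Genes that reached 1 FPKM in 3 or more of the 6 libraries were tested as log2(FPKM + 1) with limma 3.58.1 under R 4.3.3, using its intensity trend and a 2-sided test, Benjamini-Hochberg adjustment over all tested genes and a threshold of 0.05. The test was tested on simulated data. Every change planted there was larger than the fold of any RGS member in this fit, so smaller changes were not covered. Replicate numbers are not shared between the groups, so no block was used. Alternatives were other pseudocounts, no filter, other scalings, limma voom on recovered reads and leaving out each library. Lists are described by counts and medians without a test. Members, lists and rules were chosen with earlier results of these data known. Named are all 10 members, Pvalb and Drd2, up to 4 genes per pathway list with the smallest p, and the 3 profiles nearest to the leading member in each direction. Markers and Gnb5, Gnao1, Rgs5, Rgs13 and Rgs18 were named in addition, after their values were seen.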

Additional observations from a re-analysis of the deposited data

How the results depend on the processing

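No RGS member passed the threshold in either direction under any of the 14 alternatives (0 higher in Drd2 and 0 higher in PV in each), and the lowest adjusted p of a member was 0.105, for Rgs4 after rescaling to TPM. Of 112 folds of single members under the alternatives, 100 kept their sign and 12 changed it, none of them past the threshold. Rgs10 was at 0.11 with median-of-ratios scaling, 0.19 with quantile normalization and 0.10 after rescaling over nuclear protein-coding genes. Rgs2 was at -0.0148 after rescaling to TPM. With 1 library left out, Rgs2 ran from -0.20 to 0.63, Rgs7 from -0.07 to 0.63, Rgs10 from -0.27 to 0.01 and Rgs16 from -0.51 to 1.11. The changes of sign came without Drd2 replicate 2 for Rgs2 (-0.20) and Rgs16 (-0.51), without Drd2 replicate 3 for Rgs7 (-0.0047) and Rgs10 (0.0043), without PV replicate 6 for Rgs10 (0.0135), without PV replicate 7 for Rgs7 (-0.0680) and without PV replicate 8 for Rgs10 (0.0089) and Rgs16 (-0.2159). The median log2 fold of the 8 tested members, 0.04, was 0.31 with quantile normalization, where the median of all genes was 0.05, and ran from -0.35 (without Drd2 replicate 2) to 0.0439 (without PV replicate 6) with 1 library left out; the cause was not tested. The fold of Rgs9 was -3.10 with voom and -0.69 with a pseudocount of 5 FPKM. No paired analysis was possible because the groups share no replicate numbers.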
